A study of Mus musculus with 24 samples.

Results

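Potassium channel genes were taken as every row of the deposited gene table whose symbol begins with Kcn, then letters, then a number. There were 95 such rows among 25941 genes, and the 41 with a mean of at least 0.5 CPM (read counts scaled to library size) over all 24 libraries are described here by subfamily. Kcnh8 and Kcnb2 each appeared in 2 rows, all below that level. The RNA came from the thoracic aorta of wildtype C57BL/6 male mice, 10 to 12 weeks old, and was poly(A)-selected. For 3 weeks the mice ate chow with or without a drug, and there were 8 libraries in each group. Celecoxib was dosed at 100 mg/kg/day in 1 group and rofecoxib in another, at 50 mg/kg/day, while controls ate plain chow. All 3 groups, controls included, received interleukin-1β at 10 ug/kg into the peritoneum, 4 h before tissue was taken at zeitgeber time 11. The libraries therefore describe drug differences in cytokine-treated aorta, and no untreated aorta was analysed here. Celecoxib and rofecoxib are inhibitors of cyclooxygenase-2, the enzyme that makes prostaglandins during inflammation, and their doses differed. The labels call the libraries biological replicates of a group.

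Potassium channels let potassium leave the cell along its gradient and so hold the membrane of arterial smooth muscle at a negative voltage. When they open, voltage-gated calcium channels close, less calcium enters and the vessel relaxes. BK channels open on depolarisation and calcium, KATP channels when ATP falls, voltage-gated channels on depolarisation, and inward rectifier and tandem-pore channels near rest. Nerves, adipocytes and endothelium of the vessel wall and its surroundings carry channel sets of their own.

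Each library held between 21668798 and 21700121 counted reads. The aorta label was matched by smooth muscle markers, whose 12 genes (Acta2, Myh11, Tagln and others) were all measured and summed to between 33052 and 53346 CPM in every library. Markers of endothelium, adipocytes, nerve and macrophages were also present in all groups, so a level below is that of a mixed tissue. In such tissue, fewer cells of a type and less RNA per cell cannot be told apart. Some libraries stood apart by marker content. Rofecoxib replicate 5 had the highest Schwann cell and neuron marker levels of all 24 libraries, 5.07 and 5.80 (mean log2 CPM), followed by control replicate 5 with 3.56 and 3.84. Rofecoxib replicate 8 had the lowest general adipocyte and endothelial marker levels of its group, 5.81 and 5.27, and the highest smooth muscle level of its group, 10.59. Celecoxib replicate 2 had the highest cardiac muscle marker level of all 24 libraries, 7.02. Control replicate 3 had the highest skeletal muscle marker level, 3.16. Of the 41 genes, 18 had their highest rofecoxib value in replicate 5 and 13 had their lowest in replicate 8. Celecoxib replicate 2 held the highest celecoxib value of 11. Such counts were not taken over all genes, so whether they are particular to potassium channel genes was not tested.

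Levels are compared between genes as CPM per kilobase of exon, averaged over the 24 libraries. Kcnmb1 was highest at 72.0. The 54 rows below the minimum included 24 with reads in fewer than 12 libraries. Just inside the minimum, on CPM scaled by library totals, were Kcnab3 (0.542), Kcng4 (0.530) and Kcnk10 (0.525), and just outside were Kcne3 (0.488), Kcnc2 (0.454) and Kcnh7 (0.396). Kcne3 and Kcnc2 nevertheless passed the expression filter of the test, as did 40 of the 41 described genes.

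**Figure D1:**
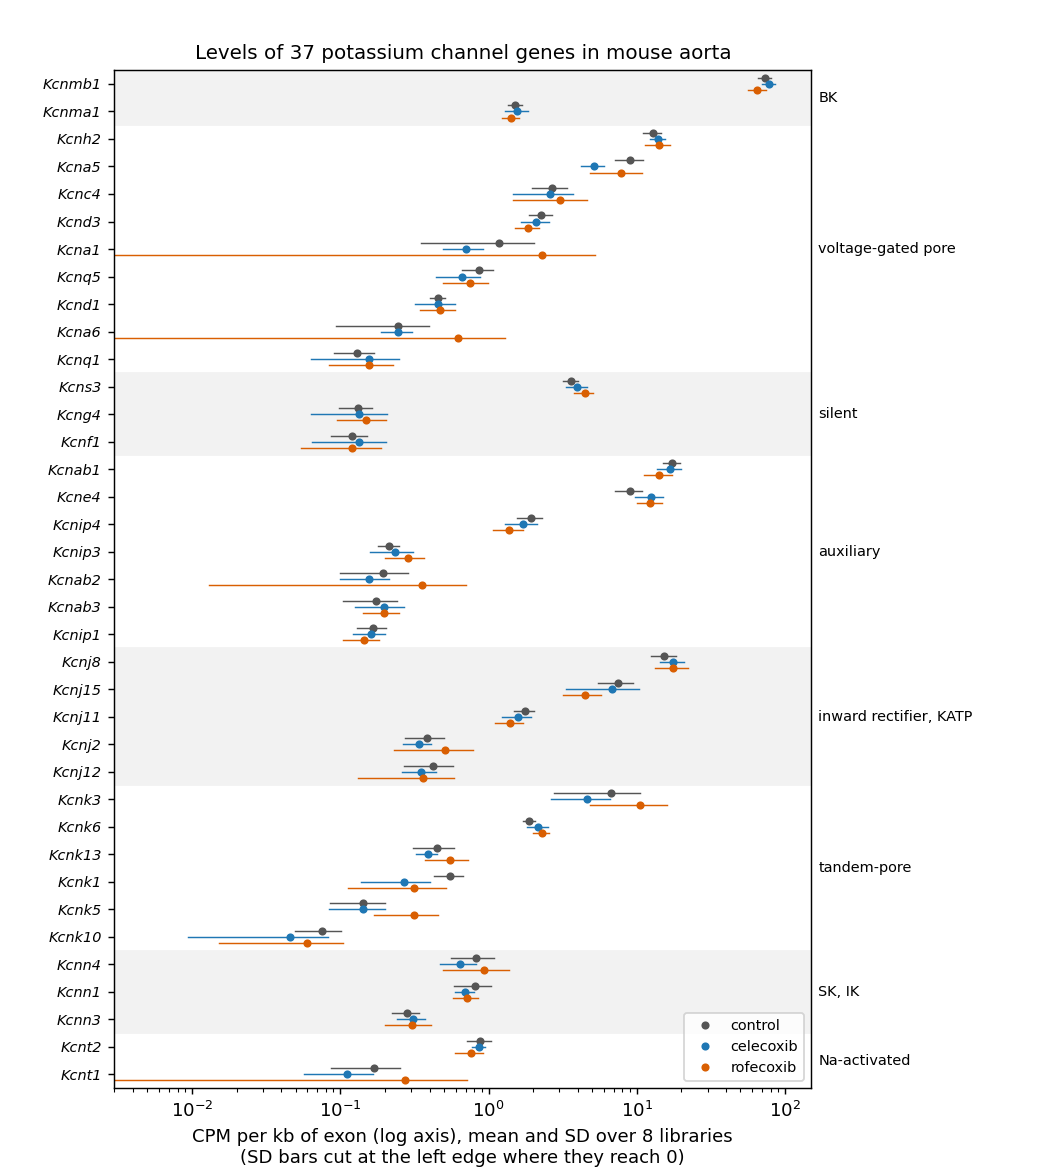
The plot of levels shows CPM per kilobase of exon on a log axis for 37 of the genes, ordered by the role of the protein; points are means of the 8 libraries of a group and bars are SD. Kcnmb1 lies far to the right of every other gene, at 72.0 averaged over all libraries, and the 3 groups lie close together for most genes.

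Among the BK subunits, Kcnmb1, the β subunit that raises the calcium sensitivity of the channel in smooth muscle, was the most abundant potassium channel transcript. In control aorta it lay at 251, 313 and 347 CPM (lowest, median and highest of 8 libraries). Kcnma1, the gene of the BK pore, lay at 21.4, 26.4 and 29.2 CPM in controls. Per kilobase, Kcnmb1 was 48.1 times as high as Kcnma1. That ratio depends on exon length, merged over all annotated exons, which was 4191 bases for Kcnmb1 and 16976 for Kcnma1. In mean CPM over all libraries the genes were at 302 and 25.4. Kcnmb1 (mm9 chromosome 11, 33862811 to 33873843) lies inside Kcnip1 (33529137 to 33893354), whose own level was 0.157 per kilobase. The counting was not stated to use strand, so reads of these overlapping genes may be split between them. In all, 11 described genes overlapped another gene row, Kcna6, Kcnab1 and Kcnd3 among them, and the same limit applies to each.

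The voltage-gated pore subunits were led by Kcnh2, known for the repolarising current of the heart, at 13.6 CPM per kilobase. Kcna5, a delayed rectifier of arterial smooth muscle, was at 7.34. Kcnc4 (2.77) and Kcnd3 (2.07) encode rapidly activating subunits, and Kcna1 (1.40) a subunit best known from axons. Kcnq5 (0.759), Kcnd1 (0.460), Kcna6 (0.373) and Kcnq1 (0.147) were lower. Kcna5, Kcna1 and Kcna6 lie near each other on mm9 chromosome 6, from 126482369 to 126485775, 126586279 to 126596021 and 126658145 to 126690882.

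Of the subunits that modify voltage-gated channels, Kcnab1, a cytoplasmic β subunit of the Kcna channels, was at 16.1 CPM per kilobase, behind Kcnmb1 and Kcnj8 only. Kcne4, a small membrane subunit that modulates voltage-gated channels, was at 11.3. Kcns3, which forms no channel alone but joins other voltage-gated subunits, was at 4.00, and Kcnip4, a calcium-binding partner of the Kcnd pores, at 1.67. Kcnip3, Kcnab2, Kcnab3, Kcnip1, Kcng4 and Kcnf1 were between 0.125 and 0.245.

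Kcnj8, the KATP pore of vascular smooth muscle, was behind Kcnmb1 only, at 16.9 CPM per kilobase, against 1.58 for Kcnj11, the KATP pore of pancreas and heart. Kcnj15, an inward rectifier, was at 6.23, Kcnj2, the strong inward rectifier, at 0.410 and Kcnj12 at 0.378. Among tandem-pore subunits, which carry background current, Kcnk3 was highest at 7.25, followed by Kcnk6 at 2.11. Kcnk13, Kcnk1, Kcnk5 and Kcnk10 lay between 0.0603 and 0.462. Kcnn4 and Kcnn3, calcium-activated channels known from endothelium, were at 0.802 and 0.298, Kcnn1 at 0.741, and the sodium-activated Kcnt2 and Kcnt1 at 0.834 and 0.185.

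The first comparison asked which of these transcripts differed between celecoxib and control aorta. None of the 40 tested genes passed at an adjusted p under 0.05 (edgeR quasi-likelihood test, Benjamini-Hochberg over 14528 genes), against 0.0344% of all genes tested (0.00688% higher and 0.0275% lower). At an unadjusted p under 0.05 there were 4 genes, 2 higher and 2 lower, which is 4 of 40 against 13.6% of all genes (7.72% higher and 5.83% lower). DESeq2 called 1 gene, Kcna5, and limma voom with sample weights called 2, Kcna5 and Kcnk1. Shares of all genes called by these tools are not given here. The median log2 fold change of the 40 genes was -0.05, against 0.00 over all genes. In 33 of the 40 genes the 95% interval of the log2 fold change lay between -1 and 1, a count that was not taken over all genes.

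Kcna5 had the smallest p. It lay at 16.0, 26.5 and 33.8 CPM in controls and at 11.9, 14.3 and 19.6 CPM with celecoxib (lowest, median and highest of 8). In 6 of 8 celecoxib libraries it was below every control, and only control replicate 8 fell among the celecoxib values. Means were 14.6 ± 2.55 and 25.9 ± 5.51 CPM (SD, n = 8 each), and the log2 fold change of -0.82 (SE 0.19) had an adjusted p of 0.110 with edgeR across all genes. The adjusted p was 0.00973 with DESeq2, 0.0199 with limma voom, 0.0132 with only these groups in the edgeR fit and 0.0341 with a term for replicate numbers 1 to 4 against 5 to 8. It was at most 0.254 when any 1 library was left out, and none of those fits called it. With rofecoxib Kcna5 lay at 11.3, 20.8 and 35.7 CPM, a range that covered every value of both other groups.

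Kcnk1, a weakly conducting tandem-pore subunit, was at 1.23 ± 0.278 CPM in controls and 0.603 ± 0.296 with celecoxib. In 7 of 8 celecoxib libraries it was below every control, and the log2 fold change was -1.03 (SE 0.32, adjusted p = 0.197, edgeR). With rofecoxib it was 0.699 ± 0.448 CPM, a log2 fold change of -0.82 (adjusted p = 0.0966). These levels rest on 5 to 34 reads per library. Kcne4 was at 33.1 ± 7.07 CPM with celecoxib against 23.8 ± 4.83 in controls, a log2 fold change of 0.47 (SE 0.14, adjusted p = 0.189), and 4 of 8 libraries exceeded every control. Kcnk6, a tandem-pore subunit, and Kcnq5, a voltage-gated subunit of smooth muscle, had log2 fold changes of 0.21 and -0.39 with adjusted p of 0.349 and 0.421.

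**Figure D2:**
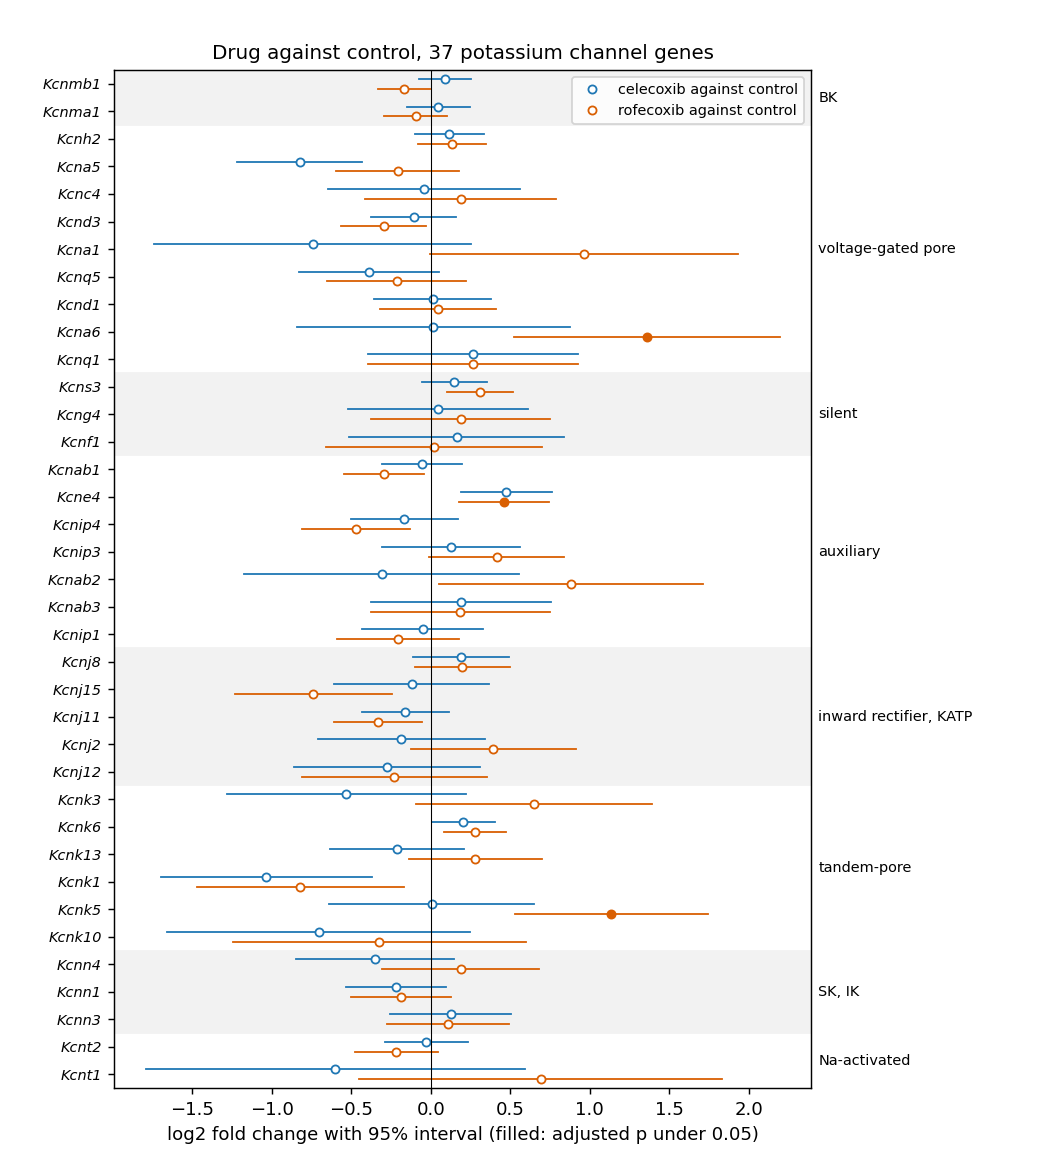
The plot of drug effects shows the log2 fold change against control with its 95% interval for 37 of the tested genes, celecoxib in blue and rofecoxib in orange; filled points passed at an adjusted p under 0.05. The filled points are rofecoxib values of Kcna6, Kcne4 and Kcnk5, all to the right of 0.

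The second comparison set rofecoxib against control. Of 40 tested genes, 4 rose, Kcnk5, Kcna6 and Kcne4 among them, and none fell. Over all 14528 genes 3.88% rose and 3.06% fell, together 6.94%. Another 36 did not pass, and 14 genes had an unadjusted p under 0.05, 7 in each direction, against 28.2% of all genes (16.4% higher and 11.8% lower). The median log2 fold change of the 40 genes was 0.12, against 0.02 over all genes. The interval lay between -1 and 1 in 30 of the 40 genes, again not counted over all genes. The counts were 5 higher and 2 lower with DESeq2, and 4 and 5 with limma voom and sample weights. Without rofecoxib replicate 5 the calls were Kcnk5 and Kcne4 higher and Kcnip4 and Kcnk1 lower. Without rofecoxib replicate 8 there were 9, with Kcns3 added to the 4 higher and Kcnab1, Kcnip4, Kcnj15 and Kcnmb1 lower. Shares of all genes called in these other fits are not given here, so these counts cannot be set against the whole table.

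Kcnk5 encodes a background channel that opens in alkaline surroundings. It lay at 0.146, 0.498 and 0.744 CPM in controls, and at 0.668, 0.867 and 2.19 CPM with rofecoxib. In 7 of 8 rofecoxib libraries it was above every control. Means were 1.07 ± 0.493 and 0.484 ± 0.194 CPM, and the log2 fold change was 1.14 (SE 0.29, adjusted p = 0.0255, edgeR). These values rest on 15 to 49 reads per rofecoxib library and 3 to 16 per control library. Without rofecoxib replicate 5 it was 0.90 (adjusted p = 0.0437), and the call was lost without control replicate 2 (adjusted p = 0.0535) or 6 (0.0538). With celecoxib Kcnk5 lay at 0.237, 0.468 and 0.841 CPM, within the control range in all but 1 library.

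Kcna6, an axonal voltage-gated subunit, lay at 0.790, 1.05 and 3.45 CPM in controls and at 1.17, 2.64 and 13.3 CPM with rofecoxib. Only rofecoxib replicate 5 exceeded every control, and the highest control was control replicate 5. Means were 3.72 ± 3.92 and 1.45 ± 0.893 CPM, and the log2 fold change was 1.36 (SE 0.40, adjusted p = 0.0433, edgeR). Without rofecoxib replicate 5 it was 0.70 (adjusted p = 0.112), and the call was also lost without rofecoxib replicate 2 or 4, control replicate 1, 2, 6, 7 or 8, or celecoxib replicate 1 or 4 (adjusted p up to 0.0889). Limma voom with sample weights gave 0.78 (adjusted p = 0.112), and the call was lost as well with only the groups compared (0.0807) and without a filter on low counts (0.0662). With celecoxib Kcna6 was at 1.47 ± 0.346 CPM.

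Kcne4 lay at 19.0, 21.6 and 31.96 CPM in controls and at 22.7, 33.4 and 39.0 CPM with rofecoxib. The ranges overlapped, with 4 of 8 rofecoxib libraries above every control. Means were 32.8 ± 6.20 and 23.8 ± 4.83 CPM, a log2 fold change of 0.46 (SE 0.14, adjusted p = 0.0444, edgeR). The call was lost in 12 of 24 fits without 1 library (celecoxib replicates 3, 5 or 6, rofecoxib replicates 2, 4, 6 or 7, control replicates 1, 2, 5, 6 or 7), with adjusted p up to 0.0957 and log2 fold changes from 0.42 to 0.53, and also without a filter on low counts (adjusted p = 0.0759). Both drug groups are set against the same 8 controls, and the log2 fold change was 0.47 with celecoxib and 0.46 with rofecoxib.

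Marker genes passed in the same comparison: 3 of 10 general adipocyte, 3 of 10 endothelial, 1 of 8 brown adipocyte, 1 of 9 Schwann cell and 1 of 9 macrophage markers were higher with rofecoxib, and 1 of 12 smooth muscle and 1 of 6 fibroblast markers lower. No neuron, neutrophil, skeletal muscle or cardiac muscle marker passed. Over all genes 3.88% were higher and 3.06% lower, and lists this small cannot be set closely against those shares. All 4 potassium channel calls ended when marker levels entered the fit as covariates, where the whole table fell from 1008 calls to between 22 and 26. With general adipocyte and skeletal muscle levels the log2 fold changes were 0.96 for Kcnk5, 1.31 for Kcna6 and 0.53 for Kcne4 (adjusted p from 0.164 to 0.206). With Schwann cell and brown adipocyte levels, covariates chosen after the data were seen, they were 0.76, 0.47 and 0.46 (adjusted p from 0.207 to 0.250). With the smooth muscle level they were 0.72, 0.98 and 0.39 (adjusted p from 0.319 to 0.422). Across the 3 sets Kcne4 lay between 0.39 and 0.53, while Kcna6 went down to 0.47.

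**Figure D3:**
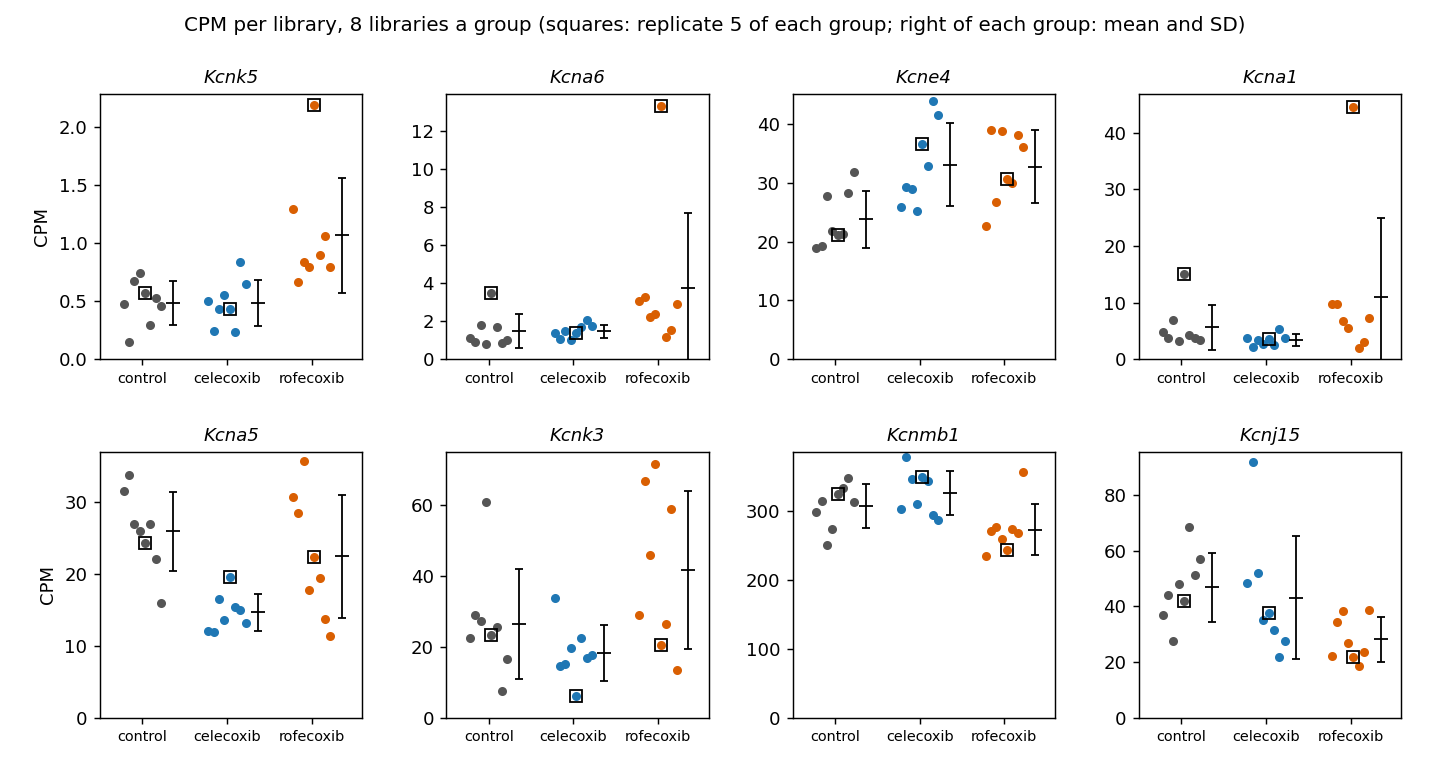
The plot of single libraries shows CPM in each of the 24 libraries for 8 genes, with the mean and SD of each group to the right of its points; squares mark replicate 5 of each group. Kcna6 and Kcna1 have 1 rofecoxib library, replicate 5, at 13.3 and 44.5 CPM, far above the rest, and Kcnk5 has the same library highest at 2.19 CPM, with 7 of 8 rofecoxib libraries above every control. No library stands apart for Kcne4, and 6 of 8 celecoxib values of Kcna5 lie below every control.

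The bases just upstream of the annotated start are shown for the called genes with an entry in RefSeq (GRCm38.p6) and for Kcnmb1, the most abundant member; 4 of the 5 genes looked for had one, and Kcna1 is named only. Each run has 250 bases, printed 5′ to 3′ on the strand of the gene, at chr14:20181783-20182032 for Kcnk5 (- strand), chr1:78816661-78816910 for Kcne4 (+), chr6:126740675-126740924 for Kcna6 (-) and chr11:33962763-33963012 for Kcnmb1 (+). Capitals mark matches, on either strand, to the GC box (GGGCGG), the E-box (CACGTG), the TATA box (TATAAA) or the CArG box of smooth muscle genes.
Kcnk5: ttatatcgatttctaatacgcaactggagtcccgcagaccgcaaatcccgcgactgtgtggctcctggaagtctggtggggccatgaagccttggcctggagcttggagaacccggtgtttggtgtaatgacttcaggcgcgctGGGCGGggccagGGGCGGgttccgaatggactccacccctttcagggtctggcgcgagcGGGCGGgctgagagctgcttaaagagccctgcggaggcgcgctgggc
Kcne4: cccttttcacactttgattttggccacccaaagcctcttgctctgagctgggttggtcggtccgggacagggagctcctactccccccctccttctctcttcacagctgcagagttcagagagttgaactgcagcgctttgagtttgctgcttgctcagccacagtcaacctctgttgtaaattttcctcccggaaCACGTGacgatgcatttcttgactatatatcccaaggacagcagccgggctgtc
Kcna6: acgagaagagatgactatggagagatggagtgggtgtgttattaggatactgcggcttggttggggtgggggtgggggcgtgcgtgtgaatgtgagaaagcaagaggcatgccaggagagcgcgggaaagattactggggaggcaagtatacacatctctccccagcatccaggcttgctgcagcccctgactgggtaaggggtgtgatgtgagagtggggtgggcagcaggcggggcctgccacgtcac
Kcnmb1: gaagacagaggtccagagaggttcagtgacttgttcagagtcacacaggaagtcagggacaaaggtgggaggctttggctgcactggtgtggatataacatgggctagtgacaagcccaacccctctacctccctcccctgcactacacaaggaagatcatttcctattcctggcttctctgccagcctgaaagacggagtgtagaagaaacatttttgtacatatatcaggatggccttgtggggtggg
Kcnk5 held 3 GC boxes, a motif in 32.7% of the 32851 windows of this length, and Kcne4 held 1 E-box, a motif in 6.02% of them. None of the 4 windows held a TATA box (12.4% of windows) or a CArG box (1.47%), and Kcna6 and Kcnmb1 held no match.

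Several genes came close to the threshold with rofecoxib. Kcns3 lay at 14.1 ± 2.07 CPM against 11.3 ± 1.28 in controls, a log2 fold change of 0.31 (adjusted p = 0.0566, edgeR), with 4 of 8 libraries above every control. Kcnj15 lay at 28.1 ± 7.98 against 46.8 ± 12.4 CPM, a log2 fold change of -0.74 (adjusted p = 0.0574), with 5 of 8 libraries below every control; it was picked out after its values were seen. Kcnk6 had 0.28 (adjusted p = 0.0691) and 6 of 8 libraries above every control, and Kcnip4 had -0.47 (adjusted p = 0.0731). DESeq2 called Kcns3, Kcnj15 and Kcnip4 as well, and limma voom with sample weights called Kcns3, Kcnj15, Kcnip4, Kcnab1, Kcnj11 and Kcnk1 but not Kcna6.

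Kcne4, called above, had a mean of 29.9 CPM over all libraries, more than Kcnma1 (25.4 CPM). The genes that follow did not pass with rofecoxib. Kcnmb1 had a log2 fold change of -0.17 with rofecoxib (95% interval -0.33 to -0.01, adjusted p = 0.165) and Kcnab1 -0.29 (-0.54 to -0.04, 0.121). Kcnma1 had -0.10 (-0.29 to 0.10) and Kcnh2 0.14 (-0.08 to 0.35). Kcnj8 had 0.20 (-0.10 to 0.50) and Kcnj11, the other KATP pore, -0.33 (-0.61 to -0.06, adjusted p = 0.108). Among endothelial members Kcnn4 had 0.19 (-0.30 to 0.68) and Kcnn3 0.11 (-0.28 to 0.49).

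The third comparison set celecoxib directly against rofecoxib, at doses of 100 and 50 mg/kg/day that were not matched, with the same 40 genes tested. None was higher and 2 were lower with celecoxib, Kcnk5 and Kcna1, against 4.32% of all genes lower, 0.564% higher and 4.89% either way. At an unadjusted p under 0.05 there were 13 genes, 2 higher and 11 lower, against 23% of all genes (7.94% higher and 15.1% lower). Kcnk5 had a log2 fold change of -1.13 (SE 0.29, adjusted p = 0.0372, edgeR), with 7 of 8 celecoxib libraries below every rofecoxib library. Kcna1, the axonal voltage-gated subunit, lay at 2.09, 3.46 and 5.31 CPM with celecoxib, at 1.89, 7.06 and 44.5 CPM with rofecoxib and at 3.21, 4.03 and 15.1 CPM in controls. The rofecoxib range covered the celecoxib range entirely, and replicate 5 was the highest library of the rofecoxib and of the control group. The log2 fold change of Kcna1 was -1.71 (SE 0.48, adjusted p = 0.0425), and -0.89 (adjusted p = 0.138) without rofecoxib replicate 5. DESeq2 called 1 gene higher, Kcnmb1, and 6 lower, and limma voom called Kcnmb1 higher and Kcnk5 lower. The percentages above belong to the edgeR fit and not to these tools.

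The Kcna1 call was lost in 16 of 24 fits that left out 1 library. Those were celecoxib replicates 2, 3, 4, 5, 6 or 8, rofecoxib replicates 1, 2, 3, 4, 5 or 7 and control replicates 1, 2, 3 or 6, with adjusted p up to 0.138. The Kcnk5 call was lost in 10, celecoxib replicates 2, 3, 4 or 5 and rofecoxib replicates 1, 2, 3, 4, 5 or 7, with adjusted p up to 0.0884. Marker genes also passed between the drugs, all lower with celecoxib: 5 of 9 Schwann cell, 5 of 10 general adipocyte, 3 of 8 brown adipocyte, 4 of 9 macrophage and 5 of 5 neutrophil markers. Smooth muscle, endothelial, fibroblast, neuron, skeletal muscle and cardiac muscle markers had no call. No gene of the whole table was called with only these groups in the fit, with the replicate block or with any of the marker covariates. With Schwann cell and brown adipocyte covariates Kcna1 turned to 0.15. Without rofecoxib replicate 5 only Kcnk3 was called, and without rofecoxib replicate 8 there were 9 genes, 1 higher and 8 lower. The share of all genes called without either library is not given here, so these counts cannot be set against it.

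Kcna6 (-1.34, adjusted p = 0.0524), Kcnk3 (-1.18, 0.0572), Kcna5 (-0.62, 0.0580) and Kcnmb1 (0.26, 0.0566) came next. Kcnk3, the acid-sensitive background channel, lay at 6.24, 17.2 and 33.8 CPM with celecoxib and at 13.5, 37.4 and 71.7 CPM with rofecoxib. Kcnmb1 lay at 287, 326 and 378 CPM with celecoxib and at 234, 269 and 356 CPM with rofecoxib. Without rofecoxib replicate 8 its log2 fold change was 0.33 (adjusted p = 0.00696), and with Schwann cell and brown adipocyte covariates 0.02.

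Relations between channel genes and cell type markers were examined within the groups, as correlations over 24 libraries of deviations from the group mean (log2 CPM). Of 319 pairs of 29 genes and 11 marker lists, 23 passed (permutation test of Pearson's r and of Spearman's rho, both adjusted p under 0.05 over all pairs), 13 positive and 10 negative. The libraries share their group structure and the whole tissue, so these values describe which transcripts varied together. The relations were not computed for other genes, so whether they are particular to potassium channel genes was not tested.

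By r over all 24 libraries, the highest values were those of Kcna1 and Kcna6 with Schwann cell markers. For Kcna1, r was 0.97 and rho 0.92, and without the 2 libraries farthest from the median (rofecoxib and control replicate 5) r was 0.93. For Kcna6, r was 0.94 and rho 0.87, and 0.85 without those libraries. The relations with neuron markers, 0.77 and 0.78, fell to 0.52 and 0.54 without them. Of 10 listed Schwann cell markers 9 were in the table and all 9 had reads in every group. Their sum was 34.97 to 65.0 CPM with celecoxib, 50.0 to 536 with rofecoxib and 47.1 to 189 in controls. Neuron markers, 8 of 9 tested, summed to 5.69 to 63.3 CPM with celecoxib, 4.95 to 578 with rofecoxib and 5.92 to 146 in controls.

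Kcnk3 varied with brown adipocyte markers (r = 0.92, rho = 0.88, and 0.89 without the farthest 2 libraries) and with general adipocyte markers (r = 0.84). The 8 brown adipocyte markers summed to 111 to 572 CPM with celecoxib, 382 to 1895 with rofecoxib and 203 to 1205 in controls, where the highest was control replicate 4, which also had the highest control value of Kcnk3, 61.0 CPM. With Schwann cell and brown adipocyte levels as covariates the difference of Kcnk3 between the drugs was 0.15 (SE 0.23) on the log2 scale.

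Kcnab1 (r = 0.88), Kcnmb1 (0.80), Kcnd3 (0.78) and Kcnq5 (0.68) varied with smooth muscle markers. Those markers summed to 37324 to 53346 CPM with celecoxib, 33052 to 49237 with rofecoxib and 34378 to 45911 in controls. Kcnmb1 and Kcnab1 also had negative relations with endothelial, general adipocyte, macrophage and neutrophil markers, from -0.60 to -0.81. Kcnma1 (r = -0.70) and Kcnip4 (-0.60) had negative relations with brown adipocyte markers.

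Kcns3 varied with general adipocyte markers (r = 0.61). The 10 general adipocyte markers summed to 1073 to 2886 CPM with celecoxib, 1420 to 5677 with rofecoxib and 1201 to 4949 in controls. For Kcnk5, Kcne4 and Kcna5 no relation with any of the 11 lists passed. Lymphocyte markers, 0 of 6 tested, summed to at most 3.47 CPM in any library.

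**Figure D4:**
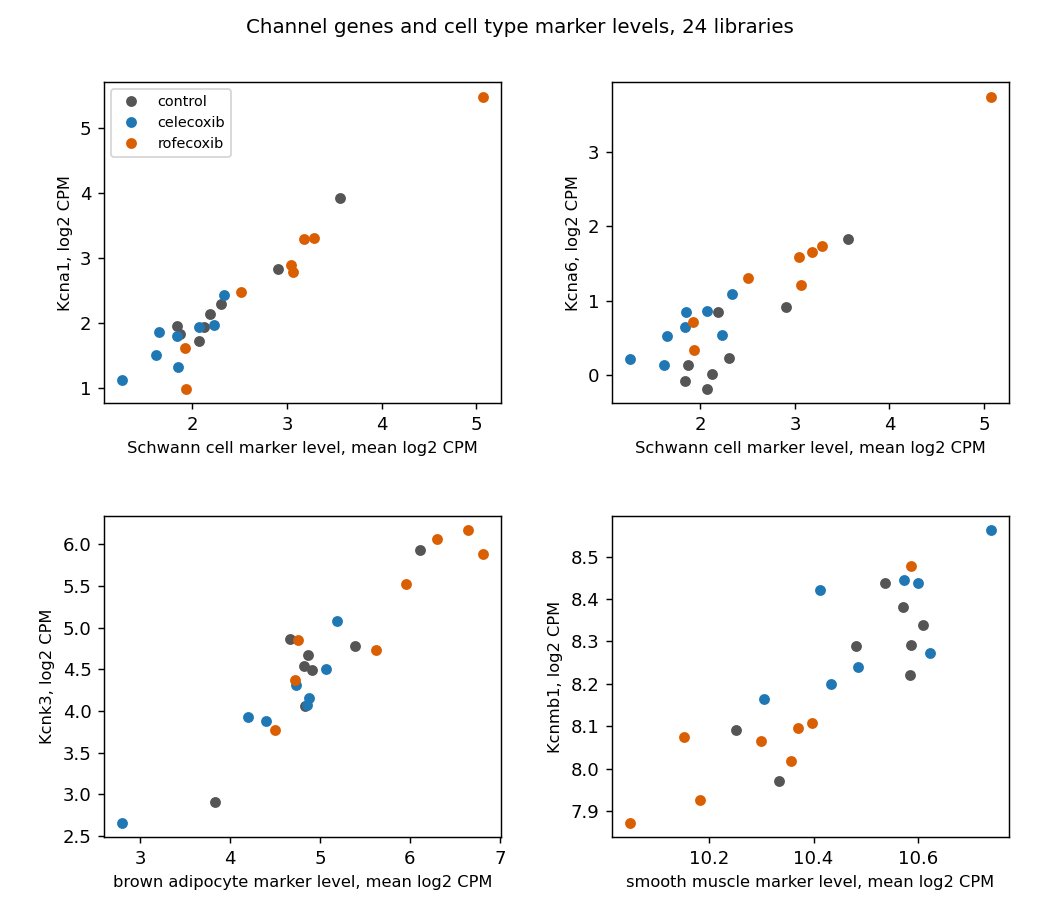
The scatter plots show log2 CPM of a channel gene against the mean log2 CPM of a marker list, 1 point per library. Kcna1 and Kcna6 rise with the Schwann cell level up to rofecoxib replicate 5 at 5.07, Kcnk3 rises with the brown adipocyte level, and Kcnmb1 with the smooth muscle level.

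**Figure D5:**
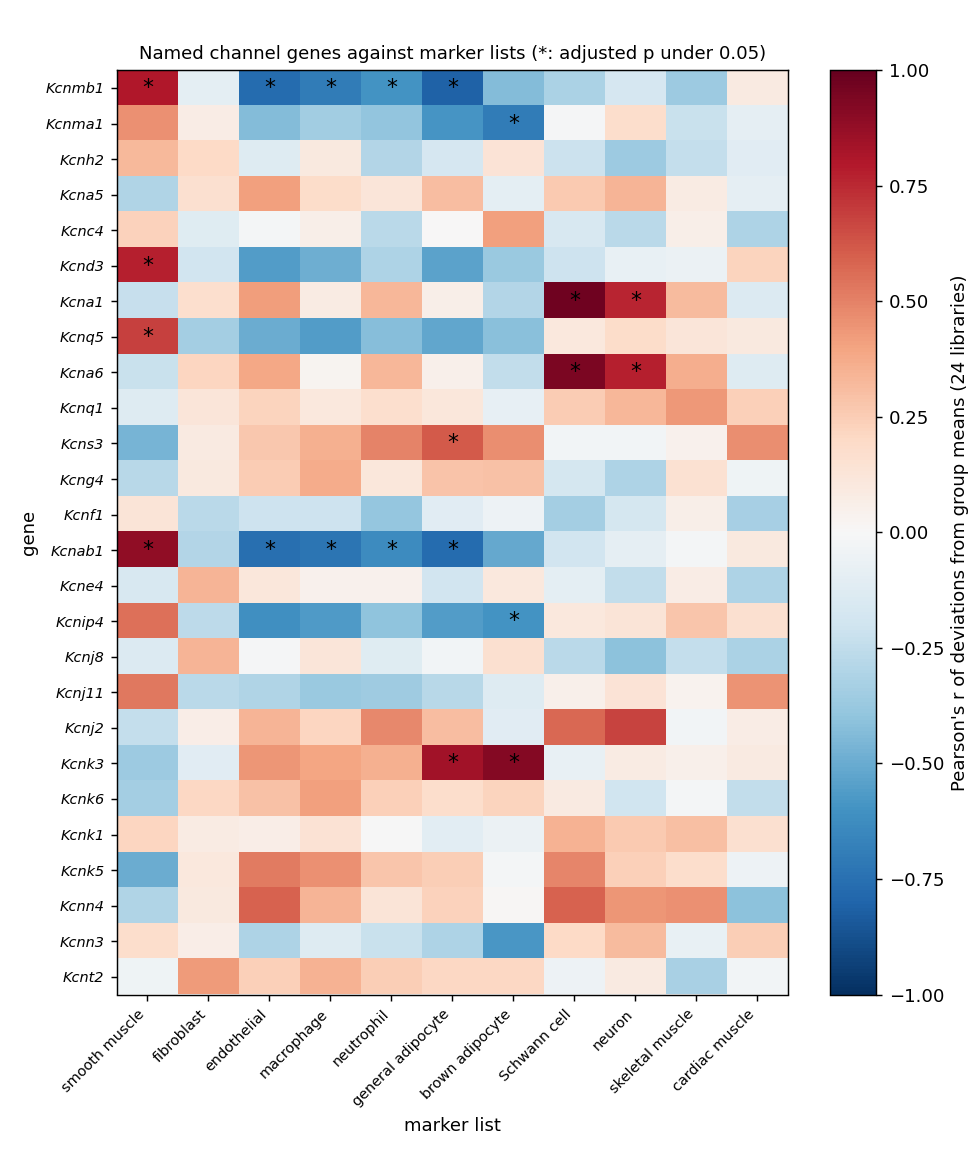
The heat map shows Pearson's r of within-group deviations for 26 channel genes (rows) and 11 marker lists (columns); asterisks mark pairs that passed, 21 of those drawn. Kcnmb1 and Kcnab1 share a pattern of positive r with smooth muscle and negative r with endothelial, adipocyte and leukocyte lists.

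Genes that work beside the potassium channels were read from a list of 52 calcium, chloride, TRP and sodium pump genes and channel partners, of which 45 were tested. None passed with celecoxib against control with edgeR, DESeq2 or limma voom, and 3 had an unadjusted p under 0.05, which is 3 of 45 against 13.6% of all genes. With rofecoxib against control 1 rose and 4 fell, against 3.88% and 3.06% of all genes. Cacna2d1 and Cacnb1, auxiliary subunits of voltage-gated calcium channels, fell by 0.28 and 0.43 on the log2 scale. Trpv2, a cation channel, and Pkd1, a polycystin, fell by 0.38 and 0.31.

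Abcc9, the sulfonylurea receptor that pairs with Kcnj8, was at 243 CPM in controls, 248 with celecoxib and 215 with rofecoxib, and did not pass in any comparison (log2 fold change -0.18 with rofecoxib, adjusted p = 0.221). Cacna1c, the pore of the L-type calcium channel, was at 56.3, 52.1 and 47.9 CPM in the same order, with adjusted p of 0.691 and 0.202; it too was picked out after its values were seen. Between the drugs 1 of the 45 partner genes was called, lower with celecoxib, against 4.32% of all genes. The partner list had a median log2 fold change of -0.02 with celecoxib and -0.06 with rofecoxib.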

How the data were processed

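The deposited file is a table of whole-number read counts, genes by 24 libraries, used without change. The submitters' processing notes name CASAVA 1.8.1, STAR 2.5.1b and genome build mm9. How reads were assigned to genes, with which annotation and whether by strand, is not stated in these sources. Library totals were nearly equal, so the depth before any evening-out is unknown.

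Members and gene lists were chosen with earlier results of these data known. One mean per group was fitted to all 24 libraries with the edgeR 4.0.16 quasi-likelihood model (R 4.3.3) after TMM scaling and the default expression filter. Tests were two-sided, and p was adjusted by Benjamini-Hochberg over 14528 genes. CPM values are TMM-scaled means with SD over 8 libraries. Exon lengths came from the GENCODE annotation of another build (GRCm38), matched for 93 of 95 rows. All annotated exons of a gene were merged, so genes with many transcript forms get long lengths and low levels per kilobase. Log2 CPM used a prior count of 2, and relations used 100000 permutations within groups. Alternatives were other scalings, filters, DESeq2 1.42.0, limma 3.58.1, covariates, a replicate block and leaving out each library. The scripts were tested on simulated counts. Libraries of a group never agreed within sampling noise (lowest chi-square per degree of freedom 8.86).

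Named genes were those called, the 5 with the smallest p per comparison, the most abundant of each subfamily, 18 of 20 listed vascular genes that met the minimum, and of each partner list every called gene up to 4, otherwise up to 2. A few of the genes so chosen are counted above but not reported here by name.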

Additional observations from a re-analysis of the deposited data

Results flagged for a closer look

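Of 78 sets of 8 libraries, each 1 named gene in 1 group, 15 held a library far from the other 7 by Dixon's criterion. Its rate of about 1 set in 20 by chance applies to independent sets of normally distributed values. These sets share the same 24 libraries and hold untransformed CPM, so the 15 cannot be weighed against that rate. Rofecoxib replicate 5 stood highest for Kcna1 (44.5 CPM), Kcna6 (13.3), Kcnn4 (10.0076) and Kcnk5 (2.19). Control replicate 5 stood highest of the controls for Kcna1 (15.1 CPM) and Kcna6 (3.45). Both libraries had the highest Schwann cell marker level of their group. The relation with Schwann cell markers over 24 libraries did not pass for Kcnn4 (r = 0.59, and 0.29 without these libraries) or Kcnk5 (0.49 and 0.25).

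Control replicate 4 was highest for Kcnk3 (61.0 CPM) and lowest for Kcnip4 (4.09 CPM), and it had the highest brown adipocyte level of the controls. Rofecoxib replicate 8 was highest for Kcnmb1 (356 CPM). Celecoxib replicate 2 was highest for Kcnd3 (29.4 CPM) and Kcnj11 (8.80 CPM). That library had the highest smooth muscle and cardiac muscle marker levels of its group. Rofecoxib replicate 3 was highest for Kcnj11 (7.79 CPM). Kcns3 in rofecoxib replicate 1 (18.5 CPM), Kcnma1 in celecoxib replicate 5 (36.9 CPM) and Kcng4 in celecoxib replicate 8 (1.12 CPM) completed the set.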

How the results depend on the processing

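For celecoxib against control the count of called potassium channel genes, 0, became 1 with DESeq2, 2 with limma voom, 1 with only the groups compared and 1 with a term for replicate numbers 1 to 4 against 5 to 8, and stayed 0 in every fit leaving out 1 library. For rofecoxib against control the count of 4 became 1 without a filter, 2 at a mean of at least 1 CPM, 7 with DESeq2, 9 with limma voom, 7 with the replicate-number term, 3 with only the groups compared and 0 with each of the 3 covariate sets; leaving out 1 library gave 0 to 9. For celecoxib against rofecoxib the count of 2 became 5 with library size alone, 0 without a filter, 1 at a mean of at least 1 CPM, 7 with DESeq2, 0 with only the groups compared, 0 with each covariate set and 5 with the replicate-number term; leaving out 1 library gave 0 to 9. The replicate block gave 0, 5 and 0 in the order above. The number of all genes called also changed between fits, and its share is not given here for each. These counts, and the partner counts below, are therefore not a result about the listed genes. The filter at a mean of at least 1 CPM left Kcnk5 (mean 0.688 CPM) and a further called gene untested. Those calls could not be kept there, while Kcna6 and Kcne4 against control and Kcna1 between the drugs stayed called. Same-number pairs had r over 0.1 in 12 of 24 cases (-0.303 to 0.56) and 7 of 24 libraries correlated best with their own number in another group, so the numbers were not taken to pair the samples. Partner counts went from 5 to 8 with DESeq2 and 12 with limma voom for rofecoxib, and from 1 to 4 and 2 for the drugs against each other. With Schwann cell and brown adipocyte covariates several genes reversed between the drugs, among them Kcna1, Kcna6 and Kcnk3 (to 0.15, 0.16 and 0.15), Kcnt1 (from -1.29 to 1.32), Kcnn4 (0.10), Kcnj2 (0.015) and Kcnab2 (0.17); the cause was not tested. The 41 genes met the minimum under either scaling, and 22 of 319 marker relations passed with library size alone against 23. Log2 fold changes were recomputed for members called, among the 5 smallest p or with an unadjusted p under 0.05. Kcnk5 had group means of at most 1.07 CPM and rests on few reads.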
